A study of Bos taurus with 12 samples.

Results

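The family of miR-34 and miR-449 was examined in mammary biopsies of healthy, multiparous Chinese Holstein cows. Small RNA libraries came from 12 cows, 3 in each of 4 groups. Cows at peak lactation formed the groups HP (high milk protein percentage) and LP (low), and cows in their non-lactating period formed HD (high) and LD (low). The groups were set by phenotype and stage, not by a treatment, ages were not given in the sources used here, and every library came from a different cow. The stages were therefore compared between cows and not within a cow. Members were the rows of the deposited table named miR-34 or miR-449 with any letter suffix. This gave 4 of the 388 mature miRNAs, namely bta-miR-34a, bta-miR-34b, bta-miR-34c and bta-miR-449a (without the species prefix below). Each had 1 precursor entry, so no choice between precursors was needed. No row of the deposited table was named miR-449b, miR-449c or miR-449d. The family was chosen for description with the difference of miR-34a between HP and LP already known, so no p-value of miR-34a that uses the HP or LP libraries, in any comparison, is independent support.

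A miRNA guides the silencing complex to messenger RNAs mainly through its seed, the bases near its 5′ end, and the members of this family share that seed. miR-34a is known as a miRNA whose transcription is induced by p53, the stress-activated tumour suppressor, and represses genes of the cell cycle and of cell survival. miR-34b and miR-34c are cut from 1 shared primary transcript, and miR-449a is known from multiciliated epithelium, where it and the miR-34 members support the formation of motile cilia. The RefSeq annotation of ARS-UCD2.0, used for the order of genes only, places the genes of miR-34b and miR-34c next to each other within the spans of BTG4 and HOATZ. It places the gene of miR-449a within CDC20B, beside those of miR-449b and miR-449c, and the gene of miR-34a within the span of GPR157.

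Values are in TPM as the authors call them, which are reads scaled to the same total of miRNA reads in every library with no correction for length. In every library the values were whole multiples of 1 step within 0.0055 TPM, and the reads implied by this step ranged from 6026620 to 23577193 per library. All reads given below are implied in this way and were not accepted as recovered counts. The value of 3 reads was 0.127 to 0.498 TPM, which covers counting error only. All 4 members lay above 0.5 TPM in all 12 libraries. Of the 7 epithelial markers listed for the tissue, all were detected in every library. HD replicate 1 and LD replicate 1 stood apart with size factors of 1.48 and 1.48, against 0.751 to 1.12 in the other 10 libraries. The limma comparisons that use non-lactating libraries were therefore also fitted without these libraries. Permutation tests, ratios, correlations and marker lists were not recomputed without them.

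miR-34a was the most abundant member by group mean, with 120.1 TPM over the 12 libraries and rank 127 of 388. miR-34c followed with 51.6 TPM (rank 157). miR-449a and miR-34b were scarce, with 3.63 TPM (rank 283) and 3.61 TPM (rank 284). Summed over the members, the family ranged from 82.1 TPM in HP replicate 1 to 280.0 TPM in LD replicate 1. miR-34a made up 43.7% to 77.9% of that sum, and it was below miR-34c in 1 library only, HP replicate 2.

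**Figure D1:**
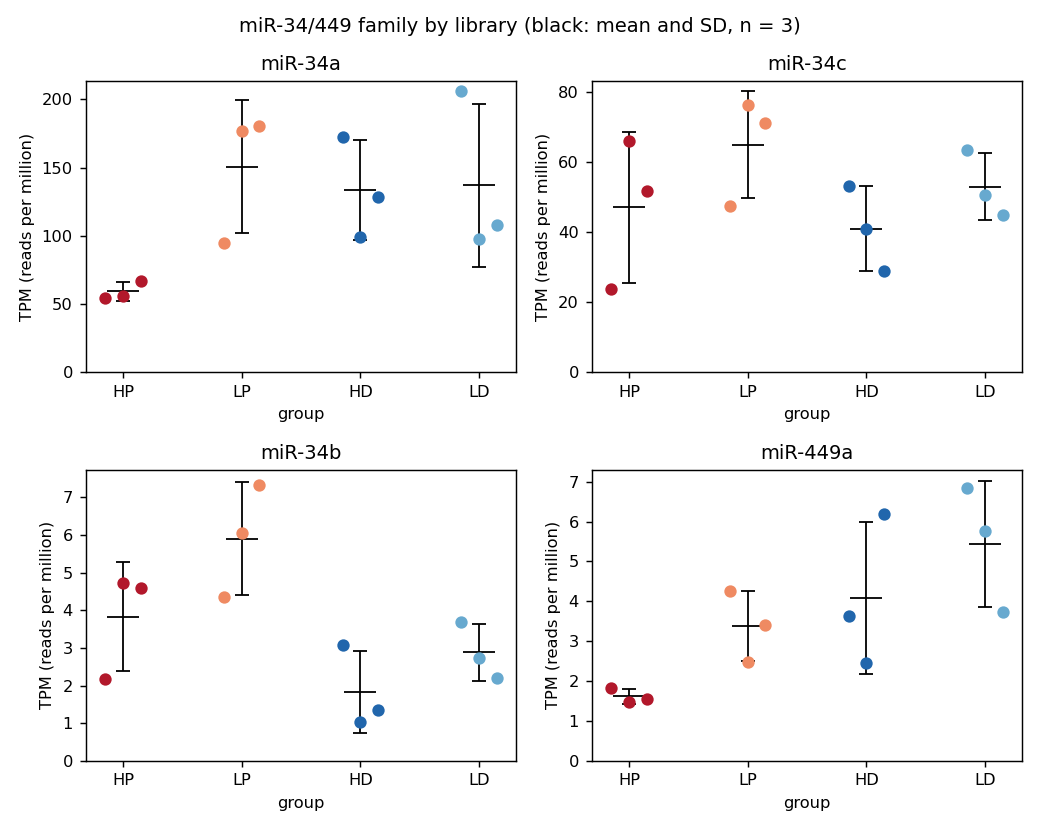
TPM of each member (y axis, linear, from 0) by group (x axis), with 1 point per library and the mean ± SD of 3 libraries in black. The 3 HP libraries of miR-34a sit between 54.4 and 66.8 TPM, below all 9 other libraries, whereas the groups of miR-34c overlap.

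miR-34a was measured at 54.4, 56.1 and 66.8 TPM in HP. In LP it was 94.4, 177 and 181 TPM. The HP libraries were close to each other and all lay below the LP libraries. These values rest on 328 to 688 implied reads per library in HP and 1263 to 1990 in LP. Divided by size factors, the HP libraries averaged 58.2 ± 2.39 and the LP libraries 149 ± 33.7 normalized TPM (SD, n = 3). The log2 fold change of LP over HP was 1.32 (SE 0.28, 95% interval 0.69 to 1.95), on the log2(normalized TPM + 1) scale used throughout.

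A miRNA was called DE where limma gave p under 0.05 before adjustment and the log2 fold change exceeded 0.8 in size, and miR-34a was DE between HP and LP. By this rule 10.1% of all 388 miRNAs were DE, and 5.93% were DE and higher in LP. The Benjamini-Hochberg adjusted p-value from limma was 0.0599, the 6th smallest p-value of the comparison, and so did not pass 0.05. HP and LP did not overlap, which held for 19.8% of all miRNAs (exact permutation test, two-sided, p = 0.1, below which 3 libraries against 3 cannot go). The difference stayed DE in each of the fits that left out 1 library, with log2 fold changes from 1.17 without LP replicate 3 to 1.51 without LP replicate 1. The paper lists miR-34a as DE too, but among the miRNAs it describes as lower in LP than in HP. The deposited values under their labels go the other way. The same held for the other miRNAs named below that were DE between HP and LP. Of these, miR-451, miR-144, miR-143, miR-16a and miR-146a are listed by the paper as lower in LP, but were higher here. It lists miR-150, miR-423-5p, miR-92b and miR-320a as higher in LP, but they were lower here. The reason was not tested.

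In the non-lactating period the groups of miR-34a overlapped. HD libraries had 172, 99.3 and 129 TPM, and LD libraries 206, 97.7 and 108 TPM. Replicate 1 was the highest library of both groups. On the size-factor scale the HD libraries had 127, 92.6 and 146 and the LD libraries 139, 137 and 146, so that the position of replicate 1 was not kept. The log2 fold change of LD over HD was 0.23 (SE 0.27, 95% interval -0.41 to 0.87, limma adjusted p = 0.994), within the spread among libraries. With deposited TPM and no size factors it was -0.01, and without HD and LD replicate 1 it was 0.25. In this comparison 3.35% of all miRNAs were DE.

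**Figure D2:**
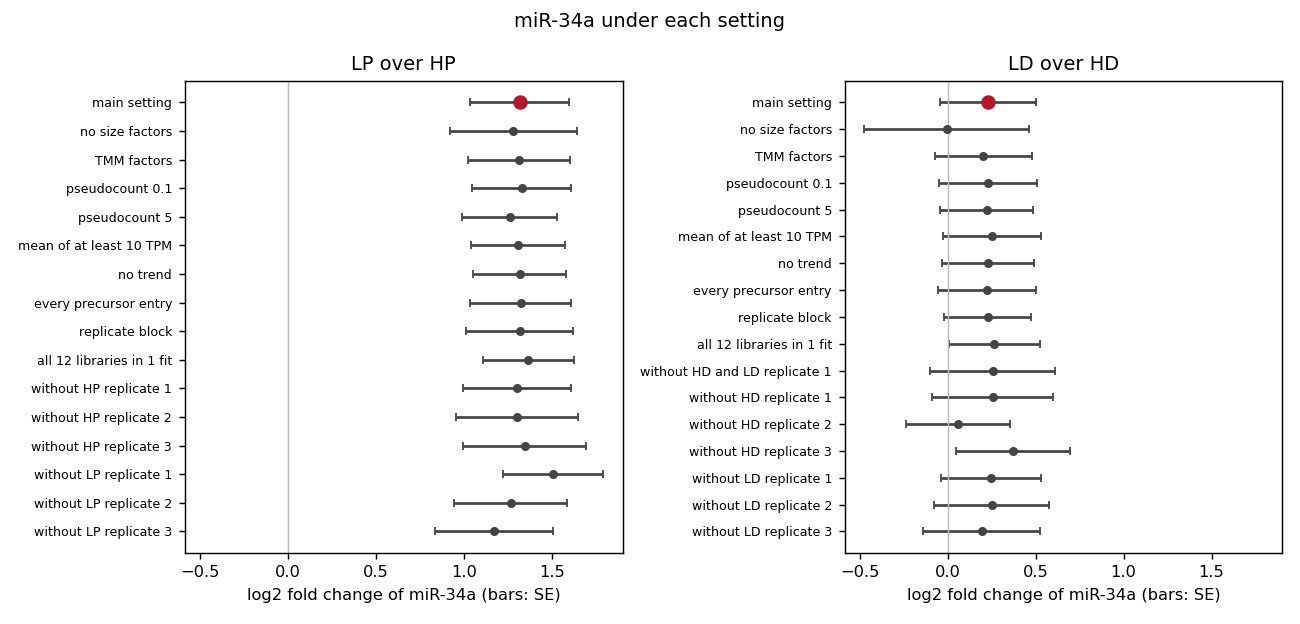
Log2 fold change of miR-34a (x axis) for LP over HP (left) and LD over HD (right) under each setting of the processing (y axis), with bars for 1 SE and the main setting in red. LP over HP stays between 1.17 and 1.51, while LD over HD runs from -0.01 to 0.37.

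Over all 12 libraries, normalized to 1 scale, the groups were ordered HP (59.4 ± 2.03), HD (116 ± 24.9), LD (137 ± 6.22) and LP (158 ± 38.4 normalized TPM, SD, n = 3). HP was lower than its neighbour HD, with a log2 fold change of -0.93 (SE 0.26, limma adjusted p = 0.0171), a comparison that reuses the HP libraries whose low values were known. In this comparison 31.2% of all miRNAs had an adjusted p under 0.05, and 16.5% passed and were lower in HP. The groups did not overlap, as for 46.9% of all miRNAs. The adjusted p was 0.0551 without size factors and 0.0894 without HD replicate 3, which both end the call, and 0.0404 without HD and LD replicate 1. HD and LD did not differ beyond their spread, nor did LD and LP (log2 fold change of LP over LD 0.17, SE 0.26, limma adjusted p = 0.651). Pooled over phenotype, lactation over non-lactating gave -0.38 (SE 0.18, limma adjusted p = 0.115), where 44.3% of all miRNAs passed. The test of whether the phenotype difference of miR-34a depended on stage gave a difference of 1.103 on the log2 scale (SE 0.37, limma adjusted p = 0.701), and 0% of all miRNAs passed that test after adjustment and 5.15% before it. LD over HP, which differ in both phenotype and stage, gave 1.19 (SE 0.26, limma adjusted p = 0.00652), where 14.4% of all miRNAs passed and were higher in LD, and 1.12 without size factors (limma adjusted p = 0.0668).

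Markers of other cell types were set beside the HP and LP values of miR-34a. The counts below stand against 5.93% of all miRNAs that were DE and higher in LP and 4.12% that were DE and lower. Summed TPM of the 3 erythroid markers ranged from 781 to 1378 in HP and from 1126 to 2041 in LP, with 2 of the 3 DE and higher in LP (miR-451 and miR-144). The 5 smooth muscle and fibroblast markers summed to 66642 to 97690 TPM in HP and 121956 to 157431 TPM in LP, without overlap. Most of this sum was miR-143, the 1 member of the 5 that was DE, with 72033 ± 12975 TPM in HP and 125820 ± 16943 TPM in LP (SD, n = 3), while the other 4 had log2 fold changes from -0.61 to 0.07 and 2 of the 5 were above 0. Of the 6 leukocyte markers 1 was DE and higher in LP (miR-146a) and 1 was DE and lower (miR-150), with sums of 6006 to 9183 TPM in HP and 5906 to 7595 TPM in LP. None of the 3 muscle markers found, of 4 listed, passed the rule (108 to 282 TPM in HP and 103 to 396 TPM in LP). Neither did the 2 endothelial markers (10665 to 15344 and 13419 to 16528 TPM) or the 7 epithelial ones (40044 to 41715 and 36967 to 48291 TPM). No marker found was at 0 in any library. Their part in the difference of miR-34a was not tested, and in a biopsy fewer cells of a type and less of a miRNA per cell cannot be told apart.

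miR-34c, the second member by level, had 23.7, 66.2 and 51.7 TPM in HP and 47.6, 76.4 and 71.3 TPM in LP. HD libraries had 53.3, 40.9 and 29.0 TPM and LD libraries 63.7, 50.6 and 44.9 TPM. HP replicate 1 was the lowest of the 12 libraries, on 143 reads. The log2 fold change was 0.58 for LP over HP (SE 0.38, limma adjusted p = 0.543) and 0.62 for LD over HD (SE 0.31, limma adjusted p = 0.994), neither DE. The first was 0.20 without HP replicate 1 and 0.90, which was DE, without HP replicate 2. The second was 0.39 without size factors and 0.83, which was DE, without LD replicate 1. After size factors HD and LD did not overlap, as for 10.3% of all miRNAs. On the 12-library scale the order was HD (35.0 ± 3.03), HP (47.3 ± 21.6), LD (56.5 ± 12.3) and LP (68.5 ± 8.57 normalized TPM, SD, n = 3), and no neighbours in this order differed beyond their spread. For miR-34c the stages differed by 0.30 on the log2 scale (lactation over non-lactating, SE 0.24, limma adjusted p = 0.331).

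miR-34b, processed from the same transcript as miR-34c, was the member called between the stages in the main setting. It had 2.16, 4.73 and 4.59 TPM in HP and 4.34, 6.05 and 7.32 TPM in LP. HD libraries had 3.08, 1.04 and 1.36 TPM and LD libraries 3.70, 2.74 and 2.20 TPM. The highest values were LP replicates 3 and 2 and the lowest HD replicates 2 and 3, and the stages overlapped through HP replicate 1 alone, whose value rests on 13 reads (exact 95% Poisson interval 1.15 to 3.69 TPM, counting error only). The 6 lactation libraries averaged 5.05 ± 1.83 normalized TPM and the 6 non-lactating libraries 2.26 ± 0.973 (SD, exact permutation test, two-sided, p = 0.0108). Lactation over non-lactating gave a log2 fold change of 0.89 (SE 0.21, 95% interval 0.44 to 1.34, limma adjusted p = 0.00439). At this threshold 22.2% of all miRNAs were higher in lactation, so a call of this kind was common. The call held in the 20 other settings tried, with log2 fold changes from 0.46, with a pseudocount of 5, to 1.16 and an adjusted p of at most 0.0269. In the same comparison 6 of the 7 epithelial and 2 of the 2 endothelial markers were called higher in lactation. Called lower were 3 of the 6 leukocyte and 2 of the 5 smooth muscle and fibroblast markers, against 22.2% of all miRNAs. No erythroid or muscle marker was called. Their part in the difference of miR-34b was not tested.

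Within the high protein cows the same difference of miR-34b was 0.93 (SE 0.29, limma adjusted p = 0.0335). In HP over HD 31.2% of all miRNAs passed, and 57 of 388 passed and were higher in HP. The difference of miR-34b was no longer called without size factors (0.79), without HP replicate 2 (0.76), without HP replicate 3 (0.84), without HD replicate 2 (0.77) and without HD replicate 3 (0.95). It was 0.43 with a pseudocount of 5. Within the low protein cows it was 0.85 (SE 0.29, limma adjusted p = 0.0558), where 22.2% of all miRNAs passed. By phenotype, LP over HP gave 0.57 (SE 0.33, limma adjusted p = 0.473) and LD over HD 0.68 (SE 0.28, limma adjusted p = 0.936), and neither was DE. LP over HP was 0.32 without HP replicate 1 and 0.33 with a pseudocount of 5. LD over HD was 0.30 with a pseudocount of 5 and was DE without HD replicate 1 (0.83) and without HD and LD replicate 1 (0.90). Ordered by level, the groups were HD (1.51 ± 0.570), LD (3.01 ± 0.580), HP (3.82 ± 1.34) and LP (6.27 ± 1.44 normalized TPM, SD, n = 3), with no difference called between neighbours. Between the ends of this order, which differ in both phenotype and stage, LP over HD gave 1.54 (SE 0.29, limma adjusted p = 0.00331), where 15.7% of all miRNAs passed and were higher in LP, and 0.79 with a pseudocount of 5.

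**Figure D3:**
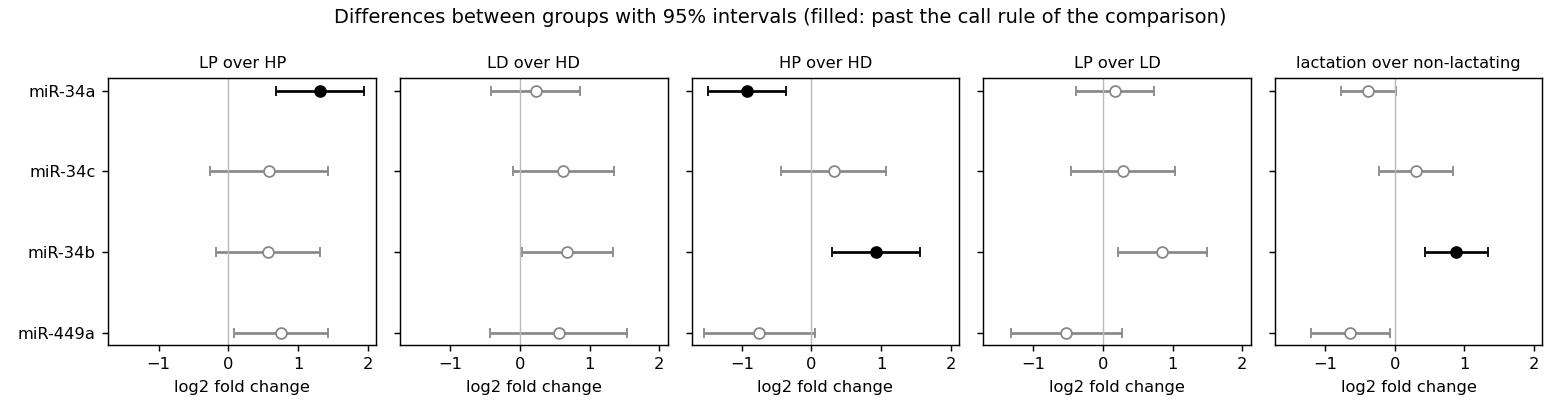
Log2 fold change (x axis) of each member (y axis) in 5 comparisons with its 95% interval from limma, where filled points passed the call rule of that comparison. The calls are miR-34a in LP over HP and HP over HD, and miR-34b in HP over HD and between the stages.

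miR-449a was lowest in HP, with 1.83, 1.47 and 1.56 TPM on 11 to 18 reads. LP libraries had 4.26, 2.49 and 3.41 TPM, HD libraries 3.62, 2.45 and 6.19 TPM and LD libraries 6.84, 5.76 and 3.73 TPM. Every HP library lay below the 9 others. HP did not overlap LP, as for 19.8% of all miRNAs, or HD, as for 46.9%. The log2 fold change of LP over HP was 0.76 (SE 0.30, limma adjusted p = 0.272), just under the limit of 0.8, so that miR-449a was not DE. It was DE with a pseudocount of 0.1 (1.03), with all 12 libraries in 1 fit (0.80), without HP replicate 1 (0.84) and without LP replicate 2 (0.98). It was 0.36 with a pseudocount of 5 and 0.53 without LP replicate 1. LD over HD gave 0.56 (SE 0.42, limma adjusted p = 0.994), and 0.97, which was DE, without HD replicate 3. It was 0.33 without HD replicate 2, 0.35 without LD replicate 2 and 0.30 with a pseudocount of 5.

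In the order of its levels, HP (1.64 ± 0.279) was followed by LP (3.77 ± 1.58), HD (3.81 ± 2.54) and LD (5.73 ± 1.68 normalized TPM, SD, n = 3), and no difference was called between neighbours. LD over HP gave 1.33 (SE 0.37, limma adjusted p = 0.0197), where 14.4% of all miRNAs passed and were higher in LD. It was no longer called without HP replicate 2 (1.30), HP replicate 3 (1.26) or LD replicate 2 (1.13), and was 0.68 with a pseudocount of 5. Lactation over non-lactating gave -0.64 for miR-449a (SE 0.26, limma adjusted p = 0.0651). This passed 0.05 without size factors (-0.72), without LP replicate 1 (-0.75), without HD replicate 2 (-0.75) and without HD and LD replicate 1 (-0.77), and the value was -0.33 with a pseudocount of 5.

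All 4 members had log2 fold changes above 0 both for LP over HP and for LD over HD, a sign that 48.2% and 52.8% of all miRNAs had in these comparisons. Without size factors miR-34a was the exception in LD over HD (-0.01), where the median of all miRNAs moved from 0.03 to -0.16. Among the 8 differences 1 was DE, that of miR-34a in LP over HP, which was known when the family was chosen. Over all miRNAs 10.1% were DE in LP over HP and 3.35% in LD over HD. By stage the signs were mixed, above 0 for miR-34b and miR-34c and below 0 for miR-34a and miR-449a.

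Ratios between members within a library do not depend on size factors, and were computed after the values had been seen. miR-34c over miR-34b was 11.0, 14.0 and 11.3 in the HP libraries and 11.0, 12.6 and 9.74 in the LP libraries. It was 17.3, 39.4 and 21.3 in HD and 17.2, 18.4 and 20.4 in LD. All 6 lactation libraries lay below all 6 non-lactating libraries. Of all pairs of miRNAs detected in every library, 18.6% had ratios that did not overlap between the stages. miR-34a over miR-34c was 0.847 to 2.29 in HP, 1.98 to 2.54 in LP, 2.43 to 4.44 in HD and 1.93 to 3.23 in LD. All pairs of groups overlapped in this ratio except HP and HD. The share of all pairs of miRNAs without overlap was not computed for HP and HD. Of single miRNAs 46.9% did not overlap there, and the low HP values of miR-34a were known, so nothing is read from this. Whether reads can be shared between members at the counting step was not checked, since their mature sequences were not used here.

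**Figure D4:**
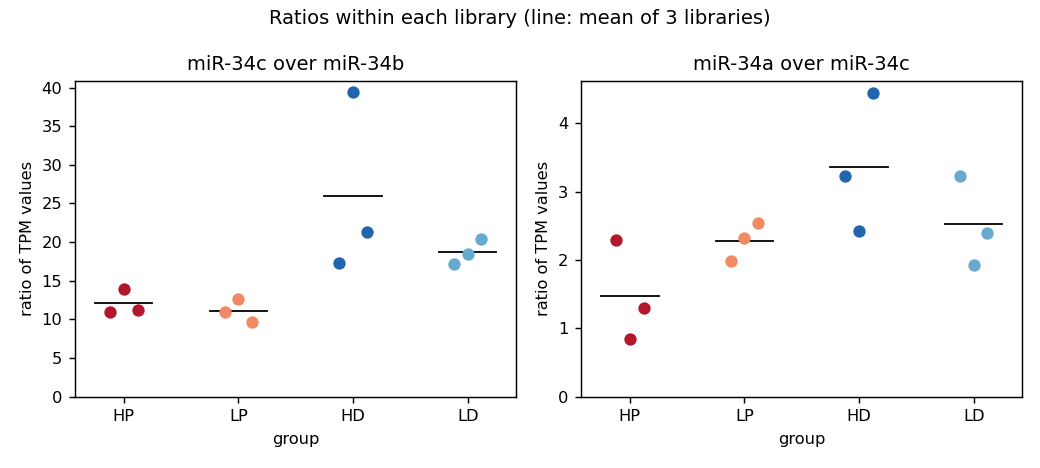
Ratio of TPM values within each library (y axis, linear, from 0) by group (x axis), for miR-34c over miR-34b (left) and miR-34a over miR-34c (right), with 1 point per library and a line at the mean. On the left the lactation libraries reach at most 14.0 and the non-lactating ones start at 17.2.

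Across the 12 libraries miR-34b and miR-34c had a Pearson r of 0.81 and a Spearman rho of 0.86 on the log2 scale, with r = 0.94 over the 6 lactation and r = 0.83 over the 6 non-lactating libraries. Between miR-34a and miR-34b r was 0.19 over the 12 libraries, but 0.78 over the lactation and 0.67 over the non-lactating libraries. Between miR-34a and miR-34c it was 0.38, with 0.63 and 0.31 within the stages. Between miR-34a and miR-449a r was 0.67 (rho 0.55), with 0.68 and 0.77 within the stages, and 0.16 once each group mean was subtracted. These correlations describe 12 libraries that differ in stage, phenotype and depth, which r over the 12 libraries does not separate.

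Among 233 miRNAs with a mean of at least 10 TPM, the profiles most like that of miR-34a over the 12 libraries were miR-18a (r = 0.87, rho 0.81), miR-301a (r = 0.77, rho 0.61), miR-106b (r = 0.74, rho 0.53), miR-218 (r = 0.73, rho 0.64) and miR-454 (r = 0.71, rho 0.41). miR-18a and miR-106b come from the related clusters of the miR-17 family, and miR-301a and miR-454 from the miR-130 family. The central 90% of the 233 values of r lay between -0.61 and 0.64. Without the 2 libraries farthest from the median of miR-34a, r was 0.83 for miR-18a and 0.37 for miR-454. Within the non-lactating libraries r was 0.80 for miR-301a and 0.71 for miR-218, but 0.27 for miR-18a, 0.11 for miR-106b and -0.38 for miR-454. None of the 5 was DE in LP over HP, with log2 fold changes from 0.24 to 0.60. In HP over HD, 2 of the 5 were called, miR-218 (-0.92, SE 0.30, limma adjusted p = 0.0380) and miR-454 (-0.91, SE 0.28, limma adjusted p = 0.0280), against 31.2% of all miRNAs called and 16.5% called and lower. The 5 were chosen for likeness to miR-34a, which was itself lower in HP, so nothing is read from this count.

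The most opposite profiles were those of miR-423-5p (r = -0.83, rho -0.76), miR-92b (r = -0.81, rho -0.81) and miR-320a (r = -0.68, rho -0.57). All 3 were DE and lower in LP than in HP, against 4.12% of all miRNAs, whereas the paper lists them as higher in LP. They were chosen as opposite to miR-34a over the same libraries, so this direction follows from the choice and is a description only. miR-423-5p had 1576 ± 431 TPM in HP and 565 ± 60.6 TPM in LP (SD, n = 3). miR-92b had 95.9 ± 9.62 and 50.8 ± 3.91 TPM, and miR-320a 82.3 ± 21.4 and 44.6 ± 9.36 TPM (SD, n = 3). Within the non-lactating libraries r with miR-34a was -0.28, -0.08 and -0.51.

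**Figure D5:**
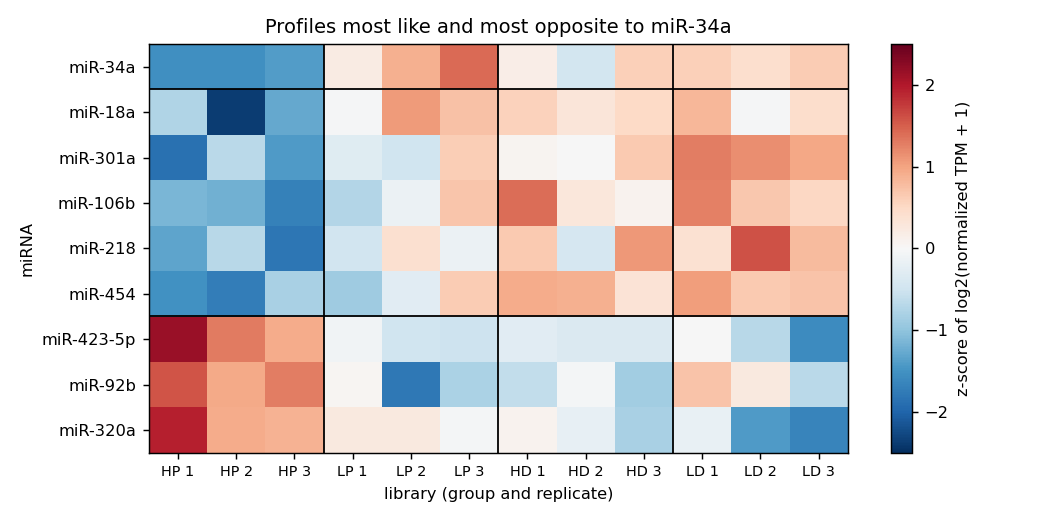
Expression of each miRNA as z-scores of its log2(normalized TPM + 1) in 12 libraries (x axis, grouped HP, LP, HD, LD) for miR-34a and the miRNAs most like (5) and most opposite (3) to it (y axis), with red for high and blue for low. In HP the row of miR-34a and the 5 below it are blue and the last 3 rows are red.

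Other miRNAs that p53 induces, or whose processing it favours, were considered with miR-34a. Of 13 listed, 12 were found, among them miR-34b and miR-34c. In LP over HP, 2 of the 12 were DE and higher in LP and 0 were lower, against 5.93% and 4.12% of all miRNAs, and the median log2 fold change was 0.19 against -0.01 over all. They were miR-16a (1.14, SE 0.42, limma adjusted p = 0.251), which restrains the cell cycle, and miR-143 (0.85, SE 0.27, limma adjusted p = 0.224), a miRNA of smooth muscle. Both belong to the miRNAs that the study picked from these libraries, so this is no independent evidence. In LD over HD 0 of the 12 were DE and the median was 0.27 against 0.03.

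Between the stages 5 of the 12 were higher in lactation and 1 was lower, against 22.2% and 22.2% of all miRNAs, and the median was 0.54 against -0.01. Besides miR-34b the higher ones were miR-215 (log2 fold change 1.44), miR-200c (1.09), which maintains the epithelial state, miR-107 (0.79) and miR-15a (0.79). miR-16b was lower (-0.95).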

How the data were processed

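Small RNA was sequenced from 12 mammary biopsies, 1 library per cow. The authors trimmed reads with Cutadapt 2.8 and Trimmomatic 0.36, kept 18 to 30 nt, aligned the tags with Bowtie 1.1.1 and 1 mismatch (build ARS-UCD1.2) and quantified miRBase 22.0 miRNAs with miRDeep2. They deposited RPM values, called TPM, for 426 entries, with library sums of 999952 to 999976. In at least 3 libraries each entry lies above 0.5 TPM. The authors tested read counts with DESeq2, which were not used here.

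Where a miRNA had several precursors, that of highest mean stood for it (388 miRNAs). Values were scaled by size factors (median of ratios) before log2(value + 1). Models were fitted over all miRNAs with limma 3.58.1 in R 4.3.3 with a mean-variance trend, over the 6 libraries of a stage for LP over HP and LD over HD, and over 12 libraries otherwise. DE meant p under 0.05 before adjustment with a log2 fold change past 0.8 in either direction. The other comparisons used Benjamini-Hochberg adjusted p under 0.05. Exact permutation tests, correlations and plots used Python 3.11.15 with scipy 1.17.1, numpy 2.4.6, pandas 2.3.3 and matplotlib 3.10.9. The fits were also run on simulated data with independent noise and no differences of scale between libraries, unlike these data. No result given here rests on that run. Alternatives are given in the closing section.

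Groups came from the sample labels. Members, lists and alternatives were chosen with earlier results of these data known. Named miRNAs were the members, the 5 most like and 3 most opposite to miR-34a among those with a mean of at least 10 TPM, and called members of the p53 and cell type lists. The number of columns left unused was 0. Depth was inferred from the step of the values, with medians of 10732360 (lactation) and 21207958 reads (non-lactating). Replicate libraries came from different cows, so p-values measure the spread between cows.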

Additional observations from a re-analysis of the deposited data

Results flagged for a closer look

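For miR-34a, the difference between the phenotype differences of the 2 stages was 1.103 on the log2 scale (SE 0.37), from log2 fold changes of 1.37 for LP over HP and 0.26 for LD over HD in 1 fit of all 12 libraries. What drew attention was its limma p-value of 0.0104 before adjustment, the 5th smallest of 388. After Benjamini-Hochberg adjustment it was 0.701, so it did not pass. Before adjustment 5.15% of all miRNAs had a p-value under 0.05 in this test, and after adjustment 0%. Over the other settings the difference ranged from 0.92 to 1.29, and without HD and LD replicate 1 it was 1.12. The cause was not tested.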

How the results depend on the processing

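The alternatives were TPM without size factors, trimmed mean of M values, pseudocounts of 0.1 and 5, a mean of at least 10 TPM, all precursor entries, no trend, a single fit of the 12 libraries, leaving out each library, and the replicate number as a block. Those for miR-34b, miR-34c, miR-449a and the counts, and leaving out HD and LD replicate 1 together, were added after seeing the data. The planned tests on read counts were not run, since whole reads were not accepted as recovered from the rounded values. With the filter on the mean no value exists for miR-34b and miR-449a.

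For miR-34a, LP over HP kept its direction and call in all 15 alternatives (limma adjusted p from 0.0401 to 0.342). HP over HD lost its call without size factors (-1.13), and leaving out single libraries gave -1.07 to -0.76. LD over HD changed sign without size factors (-0.0066). Replicate numbers mark different cows, and same-numbered libraries deviated with r from -0.39 to 0.55 (HD and LD 1 to 3: 0.55, -0.11, 0.50). With them as a block LP over HP of miR-34a was 1.32 (limma adjusted p = 0.264), LD over HD 0.23, HP over HD -0.93 (limma adjusted p = 0.0183). The block changed 1 family call, LP over HD of miR-34c (0.95, limma adjusted p = 0.0427, against 0.0572).

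Small differences of the other members changed sign. In the test of phenotype by stage, miR-34b (-0.08) was 0.037 without size factors and 0.056 with a pseudocount of 5, and -0.33 to 0.090 without single libraries. miR-34c (-0.03) was 0.16 without size factors and -0.41 to 0.29 without single libraries, and miR-449a (0.22) was -0.20 to 0.46. LP over HD of miR-449a (0.05) was -0.17 without size factors, -0.16 without HD and LD replicate 1 and -0.17 to 0.47 without single libraries. Without single libraries HP over HD of miR-34c was -0.0056 to 0.70 and LD over HP -0.043 to 0.66. The cause was not tested.

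The count of DE miRNAs in LP over HP (39) was 22 with a pseudocount of 5 and 24 without LP replicate 1. In LD over HD (13) it was 3 without size factors, 7 with a pseudocount of 5, 22 without HD and LD replicate 1, and 6 (without HD replicate 2) to 36 (without LD replicate 1). Without size factors 0 of the 3 were higher in LD, against 8 of 13, and with trimmed means 6 of 13. The count between the stages (172) was 114 with the filter on the mean, and without size factors 56 were higher and 82 lower in lactation. In LP over LD (86) it was 45 without size factors and 34 to 100 without single libraries. In LP over HD (113) it was 56 without LP replicate 3, 65 without HD replicate 3 and 67 without HD replicate 2. In LD over HP (110) it was 69 without size factors, 72 without HP replicate 2 and 73 without LD replicate 3. miR-34b and miR-449a rest on 11 to 146 reads per library.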
